A study of Homo sapiens with 6 samples.

Results

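NSD1 and SPEN, a pair of long genes for regulators of transcription and chromatin, were examined as RNA targets of DHX9 in HEK293 cells. The members were the DHX9 peak regions that overlap each gene on its transcribed strand, the plus strand of the human assembly hg19. NSD1 was taken as chr5:176560080-176727214 and SPEN as chr1:16174359-16266955. These intervals held 161 of the 28449 peaks in 2 deposited lists, namely 116 of 21618 with DHX9-Rb and 45 of 6831 with DHX9-mAb. The genes were chosen by their many peaks, and the division at 50 kb from the gene start was set with the peak positions known. Peak numbers and their place along each gene are therefore given as a description, with no test.

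The assay was FLASH, in which ultraviolet light ties a protein to the RNA it touches, an antibody pulls the protein down and the attached RNA fragments are sequenced. HEK293 is a long-established human cell line that came from an embryonic kidney. Pull-downs were made with either of 2 DHX9 antibodies, named DHX9-Rb and DHX9-mAb, or with control immunoglobulin (IgG-Rb), each in 2 biological replicates. One peak list stands for both replicates of each DHX9 antibody, and no value of the IgG-Rb samples was used here. The lists give positions and strands only (0 score cells hold a number), so read depth, replicate spread and the level in the control are unknown, and a gene stretch without peaks is a stretch where no peak was called.

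DHX9, also called RNA helicase A, unwinds double-stranded RNA in the nucleus. In human transcripts such RNA often forms where Alu elements, short repeats found in many introns, lie in opposite orientations and fold back on each other. The study addressed how DHX9 acts on RNA that carries Alu elements. NSD1 encodes a lysine methyltransferase of histones whose loss in people causes Sotos syndrome. SPEN encodes a large RNA-binding protein that recruits histone deacetylase corepressor complexes. In mouse cells it is needed for gene silencing as an X chromosome becomes inactive.

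Both genes are mostly intron. In the GENCODE 29 annotation, which is on GRCh38 and was used for lengths only, the exons of a full-length NSD1 transcript make up 7.3% of its 167.1 kb, and the exons of the full-length SPEN transcript make up 13.2% of its 92.6 kb. The longest intron of that NSD1 transcript is intron 3, with 55.9 kb. The longest of SPEN are intron 3, with 32.6 kb, and intron 1, with 24.7 kb. Peaks were not placed in exons, introns or Alu elements, because no hg19 annotation or sequence was at hand.

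Peaks of both antibodies were crowded into the early part of each gene. In NSD1 all 71 DHX9-Rb peaks and all 27 DHX9-mAb peaks started within the first 50 kb, and the remaining 117.1 kb held 0 peaks of either list. In SPEN 43 of 45 DHX9-Rb peaks and 17 of 18 DHX9-mAb peaks started within the first 50 kb, and the remaining 42.6 kb held 2 and 1. The first 50 kb make up 29.9% of NSD1 and 54.0% of SPEN.

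**Figure D1:**
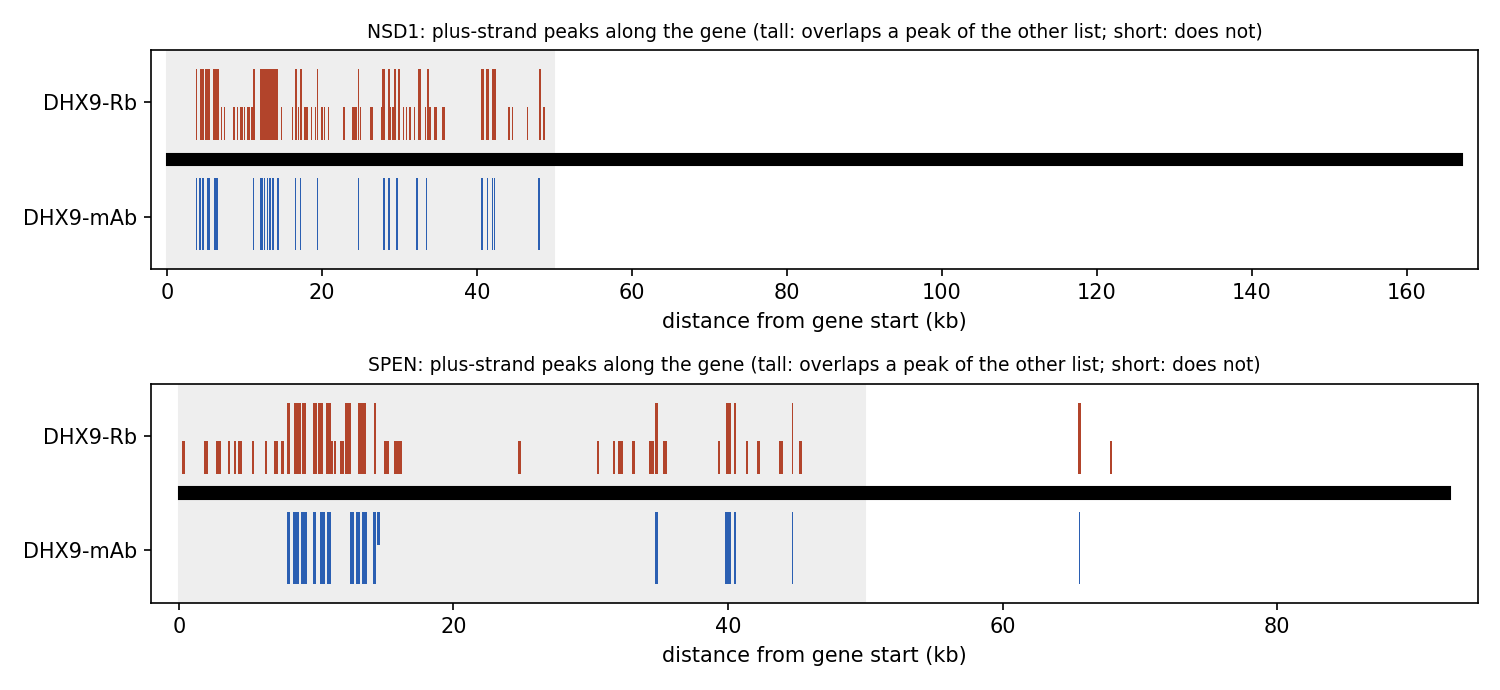
Plus-strand peaks drawn to scale against the distance from the gene start in kb, DHX9-Rb above and DHX9-mAb below the gene (black bar). Tall marks are peaks that overlap a peak of the other list and short marks are those that do not; the grey band is the first 50 kb, which holds all 98 NSD1 peaks and 60 of the 63 SPEN peaks.

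In peaks per 10 kb, the first 50 kb of NSD1 held 14.2 DHX9-Rb peaks and the rest 0. For DHX9-mAb the densities were 5.4 and 0. A count of 0 over that stretch allows 3 peaks, or 0.256 per 10 kb. With the rest given that density, the first 50 kb were 55.4-fold denser with DHX9-Rb and 21.1-fold denser with DHX9-mAb. These values leave out counting error in the first 50 kb, so they are not strict lower bounds. With the border at 25 kb, where the rest also holds peaks, the ratios were 9.27 and 9.67. All these ratios concern the number of called peaks, not RNA below the authors' threshold. In SPEN the first 50 kb held 8.6 DHX9-Rb peaks per 10 kb and the rest 0.47, a ratio of 18.3 (95% exact binomial interval 4.77 to 156.1). For DHX9-mAb the values were 3.4 and 0.235, a ratio of 14.5 (2.27 to 605.3). With the border at 25 kb the SPEN ratios were 4.45 with DHX9-Rb and 7.03 with DHX9-mAb. The intervals cover counting error only and treat peaks as independent, which peaks of 1 transcript are not.

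Coverage was computed from the same peaks and the same border, so it restates the division in nucleotides and is no separate evidence for it. DHX9-Rb peaks covered 32.3% of the first 50 kb of NSD1 and 0% of the rest, and DHX9-mAb peaks covered 11.5% and 0%. In SPEN DHX9-Rb peaks covered 21.1% of the first 50 kb and 0.744% of the rest. DHX9-mAb peaks covered 7.85% and 0.244%.

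Within the first 50 kb of NSD1 the 10 kb bins were unequal. Counted from the gene start, they held 15, 21, 17, 10 and 8 peaks with DHX9-Rb and 6, 10, 4, 2 and 5 with DHX9-mAb. The bin from 10 to 20 kb was thus the densest for both antibodies. The bin from 30 to 40 kb was the poorest for DHX9-mAb, whereas for DHX9-Rb the poorest was the one from 40 to 50 kb. All 12 later bins held 0 peaks.

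In SPEN the first 5 bins held 15, 12, 1, 9 and 6 peaks with DHX9-Rb and 6, 7, 0, 2 and 2 with DHX9-mAb. The bin from 20 to 30 kb separated an early group from a later one in both lists. Of the later bins only the one from 60 to 70 kb had peaks, 2 with DHX9-Rb and 1 with DHX9-mAb.

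**Figure D2:**
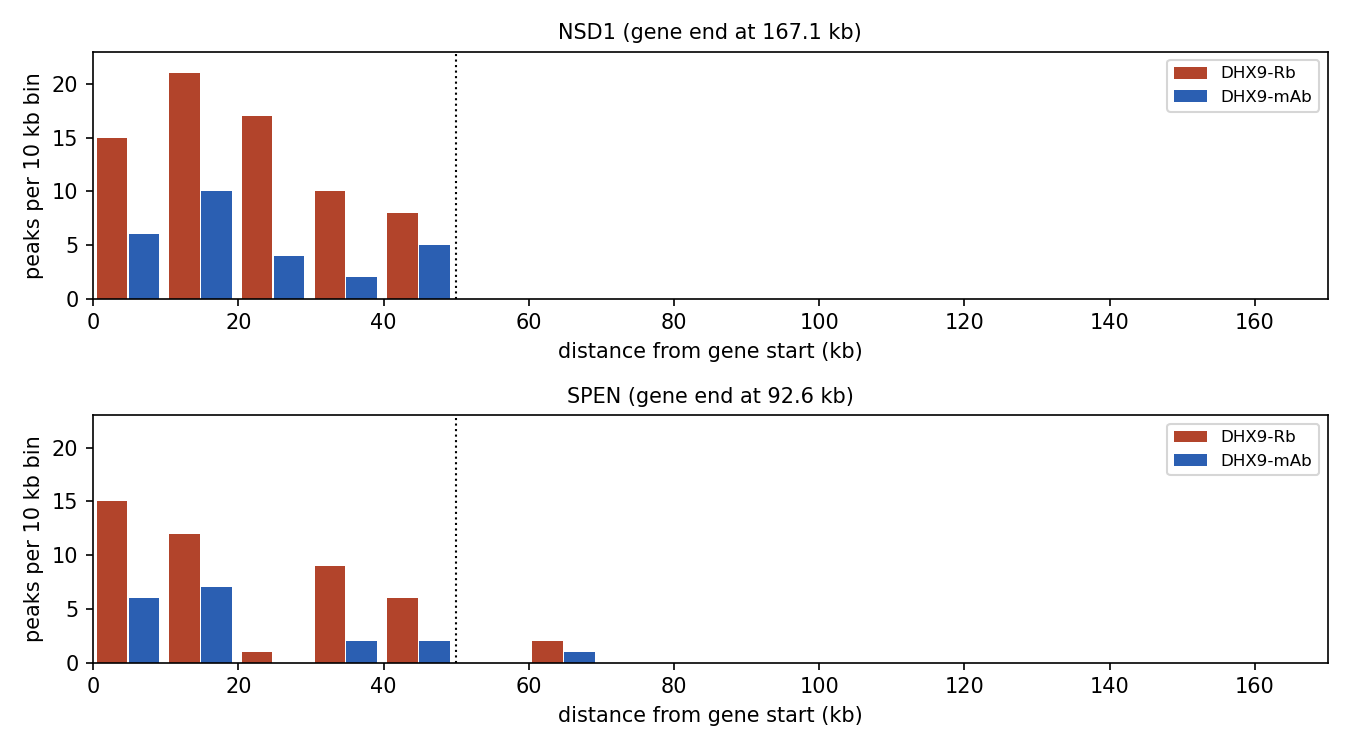
Number of peaks starting in each 10 kb bin against the distance from the gene start, with DHX9-Rb left of DHX9-mAb in each bin and a dotted line at 50 kb. The highest bars are the NSD1 bin from 10 to 20 kb, with 21 DHX9-Rb and 10 DHX9-mAb peaks; no bar stands beyond 50 kb in NSD1, and 1 bin has bars there in SPEN.

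The NSD1 group had nearly the same outer edges with both antibodies. Its first DHX9-Rb peak lay at chr5:176563824-176563966, 3744 nt after the gene start, and its first DHX9-mAb peak at chr5:176563804-176563966, 3724 nt after it. Both end at the same base. The last DHX9-Rb peak was chr5:176608608-176608814 and the last DHX9-mAb peak chr5:176608015-176608177. The groups thus spanned 45.0 kb with DHX9-Rb and 44.4 kb with DHX9-mAb, and 118.4 and 119.0 kb of the gene followed without a called peak.

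Median gaps between neighbouring peaks were shorter in both genes than in the whole lists. The whole-list gaps also run between genes, while the gene gaps lie inside genes chosen for their many peaks. In NSD1 the median gap was 200.5 nt between DHX9-Rb peaks, against 517 nt in the whole DHX9-Rb list. Between DHX9-mAb peaks it was 516.5 nt, against 1291 nt in the whole DHX9-mAb list. In SPEN it was 456.5 nt with DHX9-Rb, nearer to the value of the whole list, and 244 nt with DHX9-mAb, shorter than in NSD1. In NSD1 the widest gap with DHX9-Rb was 4641 nt, between 35.8 and 40.5 kb from the gene start. With DHX9-mAb it was 6884 nt, between 33.6 and 40.5 kb. The widest gaps of both lists thus overlapped, and their last bases, 176600570 and 176600587, were close. When same-strand neighbours up to 5 kb apart were joined, the 71 DHX9-Rb peaks of NSD1 formed 1 run. Only 4 of the 5723 DHX9-Rb runs in the genome, this one included, had 71 or more peaks, and the median run had 2. The DHX9-mAb peaks of NSD1 fell into 4 such runs, of which the largest held 16 peaks.

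The stretch before the gene start was empty for NSD1 and rich in peaks for SPEN. No plus-strand peak of either antibody lay within 50 kb before NSD1. Before SPEN there were 28 DHX9-Rb and 16 DHX9-mAb plus-strand peaks, all within 13.2 kb of the gene start. With DHX9-Rb these peaks and the early SPEN peaks formed a single run of 55 peaks from 16161179 to 16190634, which crossed the gene start. Its nearest peaks on either side were chr1:16173875-16174137, ending 222 nt before the gene start, and chr1:16174572-16174798, beginning 213 nt after it.

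In RefSeq on GRCh38.p14 the neighbour at the start of SPEN is SPEN-AS1, a long noncoding RNA gene that overlaps the start of SPEN, and at its end ZBTB17. The neighbours of NSD1 are FGFR4 and RAB24. The peaks before SPEN were not assigned to any of these genes. The sequence before the RefSeq start of SPEN is shown because DHX9-Rb peaks were called on both sides of the gene start as taken on hg19. It is chr1:15847457-15847706 of GRCh38.p14, plus strand, from the RefSeq promoter table, with CG dinucleotides in capitals.
SPEN upstream: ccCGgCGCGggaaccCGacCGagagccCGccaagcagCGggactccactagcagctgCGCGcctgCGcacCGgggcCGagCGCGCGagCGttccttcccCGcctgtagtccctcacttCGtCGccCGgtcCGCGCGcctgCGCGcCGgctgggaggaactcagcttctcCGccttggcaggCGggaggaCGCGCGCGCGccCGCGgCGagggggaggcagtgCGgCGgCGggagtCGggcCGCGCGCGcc
These 250 bases hold 44 CG dinucleotides, the same number on both strands since CG is its own reverse complement. The full 300-base window, which runs 50 bases past the start, holds 50, against a median of 14 over 35116 such windows, and 1.29% of them hold 50 or more. At least 1 CG stands in 96.0% of all windows. NSD1 has 5 start windows in the same table, with 7 to 48 CG dinucleotides. Positions in this sequence were not carried over to hg19, so no peak is placed on it.

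Around the start of SPEN, DHX9-Rb peaks were called without DHX9-mAb peaks. Between the last DHX9-mAb peak before the gene, which ended at 16172560, and the first one inside it, which began at 16182256, lay 9695 nt without a DHX9-mAb peak. That stretch held 14 DHX9-Rb peaks, 4 before the gene start and 10 after it, with widths of 137 to 366 nt. The first 10 DHX9-Rb peaks of SPEN, from 0.2 to 7.7 kb, thus had no DHX9-mAb partner (a same-strand peak that overlaps by 1 nt or more), the commoner state, since 28.6% of all DHX9-Rb peaks have one. From 8 to 17 kb the numbers were close, 16 with DHX9-Rb and 12 with DHX9-mAb, and 10 of the 16 and 11 of the 12 overlapped a peak of the other antibody, against 28.6% of all DHX9-Rb peaks and 88.0% of those with DHX9-mAb. From 17 to 30 kb there were 1 and 0 peaks, and from 30 to 50 kb 15 and 4. These borders were chosen after the positions had been seen.

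NSD1 had a like stretch inside its group. Between bases 176567061 and 176571128, 10 DHX9-Rb peaks in a row had no DHX9-mAb partner, with DHX9-mAb peaks on both sides of them. From 3 to 15 kb NSD1 held 26 DHX9-Rb and 13 DHX9-mAb peaks. From 15 to 36 kb it held 37 and 9, and from 36 to 50 kb 8 and 5. DHX9-mAb partners were present for 14 of the 26, 10 of the 37 and 4 of the 8 DHX9-Rb peaks, against 28.6% in the whole DHX9-Rb list, again with borders chosen after the positions had been seen.

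No minus-strand peak of either antibody lay inside NSD1 or SPEN. Within 50 kb before SPEN the minus strand held 28 DHX9-Rb and 6 DHX9-mAb peaks, the nearest ending 1.0 and 4.6 kb before the gene start. Both strands thus carried peaks before SPEN, and only the plus strand did within it. Within 50 kb after NSD1 the minus strand held 1 DHX9-Rb peak, 43.5 kb past the gene end, and 0 DHX9-mAb peaks. No peak of either strand lay within 50 kb after SPEN.

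The few SPEN peaks beyond 50 kb stood apart from the earlier ones. They lay 65.5 kb or more from the gene start, after a gap of 20145 nt with DHX9-Rb and 20803 nt with DHX9-mAb, the widest in the gene for each list. The DHX9-Rb peaks were chr1:16239886-16240052 and chr1:16242200-16242349. The DHX9-mAb peak, chr1:16239912-16240015, lay wholly inside the first of these. After the last peaks 24.6 kb of the gene followed without a DHX9-Rb peak and 26.9 kb without a DHX9-mAb peak.

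DHX9-Rb gave more peaks than DHX9-mAb in both genes. NSD1 had 2.63 DHX9-Rb peaks for each DHX9-mAb peak (95% exact binomial interval 1.67 to 4.26), SPEN had 2.5 (1.42 to 4.59) and the whole lists 3.16. The intervals cover counting error only, and both hold the value of the whole lists. In covered nucleotides the ratios were 2.82 in NSD1, 2.7 in SPEN and 3.35 in the whole lists.

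Nearly all DHX9-mAb peaks of both genes touched a DHX9-Rb peak. Overlap by 1 nt or more with a same-strand peak of the other antibody made a peak shared. In NSD1 all 27 DHX9-mAb peaks were shared (95% Wilson interval 87.5 to 100%), and in SPEN 17 of 18 were (94.4%, 74.2 to 99.0%). In the whole DHX9-mAb list 88.0% were shared, a share that lies inside both intervals. When at least 50% of both peaks had to overlap, 48.1% of the DHX9-mAb peaks of NSD1 and 66.7% of those of SPEN were shared. The share of the whole list under this stricter rule was not computed, so these values cannot be set beside the 88.0%. The single DHX9-mAb peak without a partner was chr1:16188794-16189006 in SPEN, 213 nt wide.

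Fewer DHX9-Rb peaks had a DHX9-mAb partner, 28 of 71 in NSD1 (39.4%, 28.9 to 51.1%) and 16 of 45 in SPEN (35.6%, 23.2 to 50.2%). In the whole DHX9-Rb list 28.6% had one. This value lies inside the interval of SPEN and just below that of NSD1. The share over the whole list differed with the crowding of peaks. It was 15.1% among DHX9-Rb peaks without a neighbour within 5 kb and 39.1% among the 4787 DHX9-Rb peaks in runs of 20 or more. The peaks of NSD1 and the early ones of SPEN belong to such runs, and those of SPEN beyond 17 kb do not. The median width differed with crowding as well, 166 nt without a neighbour and 227 nt in the large runs, and the part of either in the shares of the genes was not tested.

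**Figure D3:**
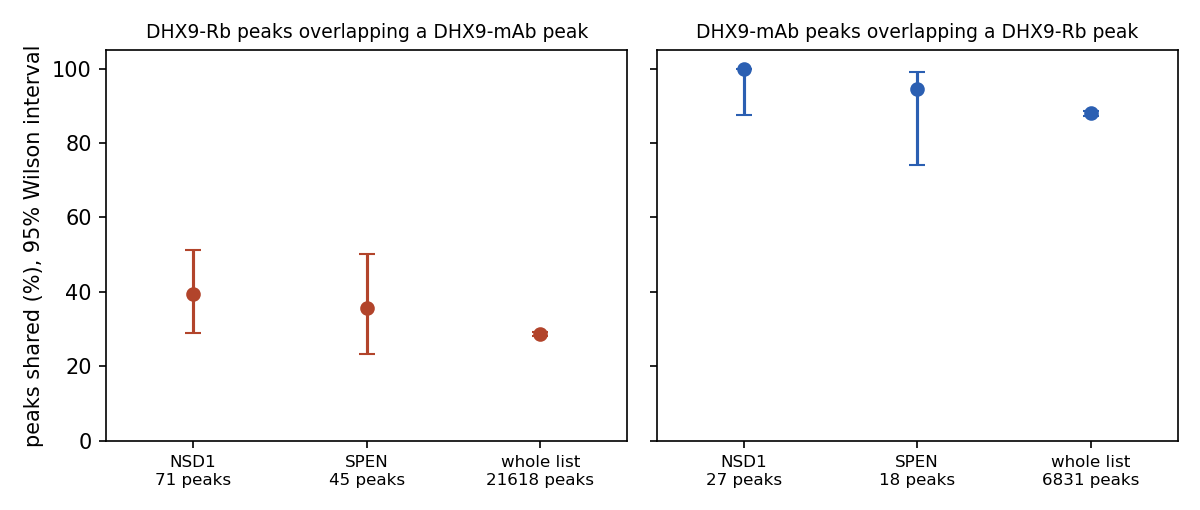
Share of peaks shared with the other antibody (1 nt or more), in percent, with 95% Wilson intervals that cover counting error only, for NSD1, SPEN and the whole list (left DHX9-Rb, right DHX9-mAb). The intervals of the genes hold the whole-list value, except that the NSD1 interval for DHX9-Rb (28.9 to 51.1%) begins just above 28.6%. They treat peaks as independent, which peaks of 1 transcript are not, so this is no test.

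In nucleotides the lists had 4765 nt in common in NSD1. That is 29.5% of the DHX9-Rb sequence and 83.2% of the DHX9-mAb sequence there. In SPEN they had 2988 nt in common, 27.5% of the DHX9-Rb and 74.1% of the DHX9-mAb sequence. Over the whole lists these shares were 22.0% and 73.8%.

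The midpoints of overlapping peaks lay farther apart in both genes than in the whole lists. Each DHX9-mAb peak was set beside the DHX9-Rb peak that overlapped it most, so the pairs were picked for overlapping and no test was made. The genes were chosen for their many peaks, while the whole lists also hold sparse ones. The part of crowding and of peak width in these distances was not tested. The midpoints lay a median of 64 nt apart in NSD1 (27 pairs, 0.5 to 305 nt) and 58.5 nt apart in SPEN (17 pairs, 0 to 295.5 nt), against 35.5 nt over the 6011 pairs of the whole lists. They lay within 50 nt of each other in 10 of 27 pairs of NSD1 (37.0%), in 8 of 17 of SPEN (47.1%) and in 61.3% of all pairs. The closest pair of NSD1 was chr5:176588655-176588814 with DHX9-Rb and chr5:176588653-176588817 with DHX9-mAb. The closest of SPEN was chr1:16218995-16219106 with DHX9-Rb and chr1:16218993-16219108 with DHX9-mAb. The pair of NSD1 with the least overlap, chr5:176593703-176593835 of DHX9-Rb and chr5:176593568-176593703 of DHX9-mAb, met in 1 nt, with midpoints 133.5 nt apart. The DHX9-mAb peak lay wholly inside its DHX9-Rb partner in 10 of 27 pairs of NSD1 (37.0%), 3 of 17 of SPEN (17.6%) and 36.1% of all pairs.

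Peaks did not always pair singly. In NSD1 3 DHX9-Rb peaks overlapped 2 DHX9-mAb peaks each, and 4 DHX9-mAb peaks overlapped 2 DHX9-Rb peaks each. In SPEN these numbers were 2 and 1. In the whole lists 575 of 21618 DHX9-Rb peaks and 746 of 6831 DHX9-mAb peaks overlapped more than 1 peak of the other antibody. The widest DHX9-Rb peak of NSD1, chr5:176572822-176573343 with 522 nt, was among those with 2 partners. The widest DHX9-mAb peak of NSD1, chr5:176589578-176589960 with 383 nt, reached across 2 DHX9-Rb peaks. In SPEN the widest DHX9-Rb peak was chr1:16186423-16186905 with 483 nt and the widest DHX9-mAb peak chr1:16214170-16214564 with 395 nt, each with 1 partner.

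Peak widths were close to those of the whole lists. The median DHX9-Rb peak was 192 nt wide in NSD1 (59 to 522 nt), 227 nt in SPEN (112 to 483 nt) and 201 nt in the whole list. The median DHX9-mAb peak was 187 nt wide in NSD1 (117 to 383 nt), 204 nt in SPEN (104 to 395 nt) and 191 nt in the whole list. DHX9-Rb peaks with a DHX9-mAb partner had a median of 262 nt in NSD1, against 175 nt for those without one. In SPEN the medians were 268.5 and 222 nt, and in the whole list 243 and 190 nt. Wide peaks overlap others more easily, so width and sharing are linked measures.

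**Figure D4:**
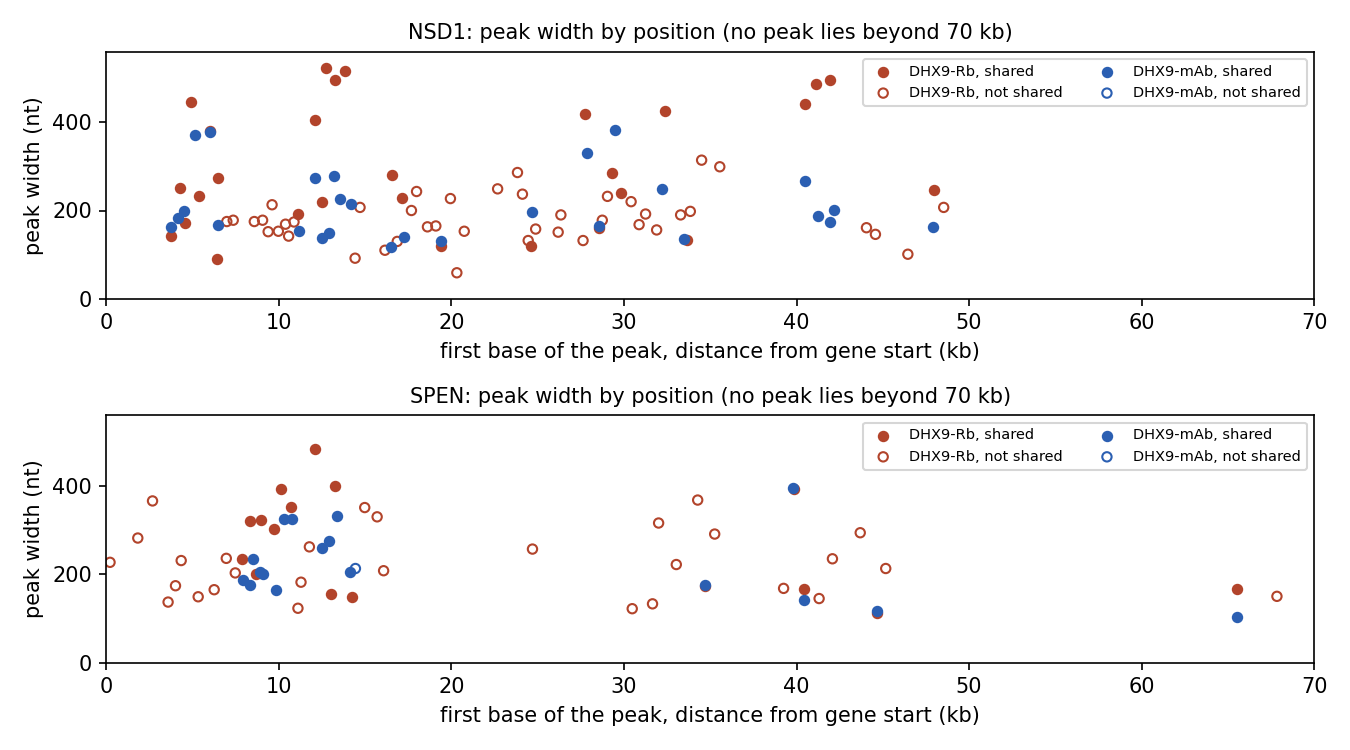
Width of each peak in nt against the distance of its first base from the gene start in kb, with DHX9-Rb in red and DHX9-mAb in blue, filled where the peak overlaps one of the other list. DHX9-Rb peaks over 400 nt, 10 in NSD1 and 1 in SPEN, are all filled, while open DHX9-Rb symbols lie between 59 and 368 nt. The filled share of such wide peaks in the whole list was not computed, so nothing particular to these genes is read from this.

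Both genes stood high among stretches of like size. The genome was divided into 50 kb windows for each strand, and the median window with a peak held 2 DHX9-Rb peaks (4534 windows) and 1 DHX9-mAb peak (2353 windows). The 71 DHX9-Rb peaks in the first 50 kb of NSD1 were reached by 2 of those windows and its 27 DHX9-mAb peaks by 12. The 43 DHX9-Rb peaks in the first 50 kb of SPEN were reached by 21 windows and its 17 DHX9-mAb peaks by 44. The genes were picked for their peaks, and their stretches begin at the gene start while the windows do not, so these ranks are a description of the lists.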

How the data were processed

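The deposited values are the first base, last base and strand of each DHX9 FLASH peak region in HEK293 cells. Peaks were called with PEAKachu, per the files' second column; Bowtie2 2.2.6 and hg19 are named in the submitters' processing notes. Not given in the sources used here are the PEAKachu settings, the use of the IgG-Rb control, how the authors combined replicates and how they handled reads from repeats, which bears on which peaks exist. Per the labels, random bases served to merge PCR duplicates, and IgG and DHX9 samples were pooled ahead of reverse transcription. The sample labels name the list of each antibody.

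Peaks were assigned to a gene by any overlap on the plus strand and to a part by their first base. The peaks named singly are the first, last and widest of each gene and list, the widest gaps, the densest bins and DHX9-mAb peaks without a partner; others, such as the closest pairs, were chosen after their values were seen. The genes, the 50 kb border and the lists were chosen with earlier results of these data known. With 1 list per antibody and no depth, no test was made. Intervals are 95% Wilson (shares) or exact binomial (ratios) and cover counting error only. All of them treat peaks as independent, which peaks of 1 transcript are not. The overlap, merging and coverage steps were tested on simulated data. A list of other chromatin regulators was not analysed here, since placing those genes needs an hg19 annotation. Calculations used Python 3.11.15, NumPy 2.4.6, pandas 2.3.3 and SciPy 1.17.1, and plots matplotlib 3.10.9.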

Additional observations from a re-analysis of the deposited data

How the results depend on the processing

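Of 54 values recomputed with another setting, 43 stayed within their interval or within 1.5 times the value given, 11 moved and 0 reversed. The excess of the first part over the rest depended in size on where the border was set. With a border at 25 kb the density ratio of NSD1 was 9.27 (DHX9-Rb) and 9.67 (DHX9-mAb). That of SPEN was 4.45 (DHX9-Rb) and 7.03 (DHX9-mAb), the last of which stayed within its interval. In both genes, peaks of both lists lie between 25 and 50 kb, and this border puts them in the rest. With a border at 75 kb the rest held 0 peaks. With 3 peaks given to the rest, the ratios were 29.1 and 11.1 in NSD1 and 3.52 and 1.41 in SPEN. With peaks of at least 150 nt alone, the single DHX9-mAb peak of SPEN beyond 50 kb dropped out. With 3 peaks given to the rest, the DHX9-mAb ratio of SPEN was then 4.26. When at least 50% of both peaks had to overlap, 18.3% of DHX9-Rb and 48.1% of DHX9-mAb peaks of NSD1 were shared. In SPEN 26.7% of DHX9-Rb peaks, which stayed within its interval, and 66.7% of DHX9-mAb peaks were. Shares of the whole lists under this rule were not computed. Joining neighbours up to 2 or 10 kb apart, chosen after seeing the data, gave a largest DHX9-mAb run of 7 or 27 peaks in NSD1 (16 with 5 kb) and, with 10 kb, of 29 in SPEN (13 with 5 kb). No paired analysis was possible because each list combines its replicates; leaving out a replicate was not run for the same reason. Read depth is not in the lists and limits every statement on stretches without peaks.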
